A study of Mus musculus with 8 samples.

Results

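Keratins are the intermediate filament proteins of epithelial cells, and the keratin genes measured here were all genes whose symbol is Krt followed by a digit, with the keratin-associated proteins of hair left out. Of 19935 gene symbols on the array, 52 were keratins, each with 1 probe set. They were sorted by where each keratin is best known into 6 simple luminal, 3 basal, 20 squamous or stress and 22 hair keratins, and Krt222 was left ungrouped. Total RNA of unsorted mammary cells was hybridised to 8 Affymetrix Mouse Gene 1.0 ST arrays, of which 4 were of parous mice and 4 of virgin mice of the same age. The parous mice, of the strain FVB/NHanHsd like the virgin mice, were mated at 42 days of age, lactated for 21 days and then had 28 days of involution according to the sample labels, whereas the methods give a longer default period after weaning. Virgin mice were kept under the same conditions and never mated. No gene was altered in either group, and neither received an agent. Each array held RNA from the fourth mammary glands of 5 pooled mice, so the 4 arrays of a group are 4 pools. The sources used here do not state the estrous stage of a pool, though the methods grouped mice to control for the cycle. The p-values set the difference between groups against the spread between pools.

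Keratin filaments are built from pairs of an acidic type I and a basic type II chain, so a cell makes both kinds in matched amounts. Ducts of the mammary gland have an inner luminal layer, marked by the simple keratins Krt8 and Krt18 together with Krt19 and Krt7, and an outer basal layer of myoepithelial cells, marked by Krt5, Krt14 and Krt17. Squamous keratins such as Krt4 and Krt13 line stratified epithelia, Krt1 and Krt10 belong to the upper epidermis, and Krt6a, Krt16 and Krt17 are induced in stressed or healing epithelium. Hair keratins belong to the shaft and the inner root sheath of the hair follicle.

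Promoter windows from 250 bases before to 50 bases after the gene start were taken from RefSeq (GRCm38.p6) and held 36 of the 52 keratin genes, in 37 windows. Those of Krt7, Krt23 and Krt8 are shown because these simple luminal keratins differed in how far their parous and virgin values lay apart, as described with their values. No window was available for Krt4, Krt6a or Krt17, so the motif matches do not cover them. Capitals mark matches to 5 motifs searched on both strands, of which TATAAA matched in Krt8, GGGCGG in Krt7 and TTGCNNAA in Krt23.
Krt7, chr15:101412153-101412452, plus strand: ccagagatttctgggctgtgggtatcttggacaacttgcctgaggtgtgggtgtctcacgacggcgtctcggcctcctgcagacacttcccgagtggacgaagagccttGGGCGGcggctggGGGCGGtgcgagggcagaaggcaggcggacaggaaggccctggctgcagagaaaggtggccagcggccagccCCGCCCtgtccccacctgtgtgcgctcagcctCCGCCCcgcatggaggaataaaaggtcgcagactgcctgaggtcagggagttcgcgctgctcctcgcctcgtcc
Krt23, chr11:99493071-99493370, minus strand: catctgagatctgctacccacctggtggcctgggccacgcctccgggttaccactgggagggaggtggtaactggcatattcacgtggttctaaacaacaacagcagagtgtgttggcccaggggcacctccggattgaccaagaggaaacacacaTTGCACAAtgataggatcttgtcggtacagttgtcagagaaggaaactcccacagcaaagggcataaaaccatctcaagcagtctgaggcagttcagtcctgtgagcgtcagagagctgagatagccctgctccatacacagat
Krt8, chr15:102004293-102004592, minus strand: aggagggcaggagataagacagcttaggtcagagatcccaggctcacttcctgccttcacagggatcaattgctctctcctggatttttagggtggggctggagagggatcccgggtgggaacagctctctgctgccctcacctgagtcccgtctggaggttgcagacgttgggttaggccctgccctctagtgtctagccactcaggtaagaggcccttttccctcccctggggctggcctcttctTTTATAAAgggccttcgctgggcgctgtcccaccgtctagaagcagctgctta
The window of Krt7 held the Sp1 motif GGGCGG, or CCGCCC on the other strand, at 4 places that began 141, 128, 56 and 24 bases before the start. The window of Krt23 held the C/EBP motif TTGCNNAA once, 94 bases before the start. In Krt8 the TATA box motif TATAAA lay at the annotated start and overlapped its own match on the other strand. Across the keratins, TATAAA was present in 19 of 37 windows (51.4%), against 13.6% of all 32851 windows of the same length. It stood in 13 of the 16 hair keratins with a window, 2 of the 5 simple luminal, 0 of the 2 basal and 4 of the 13 squamous or stress keratins. GGGCGG was found in 2 keratin genes, Krt7 and Krt75, and in 35.7% of all windows. TTGCNNAA was found in 5 keratin genes and in 10.8% of all windows, the AP-1 motif TGANTCA in Krt13 alone among the keratins and in 7.81% of all windows, and the grainyhead-like motif AACCNGGTT in no keratin window and in 0.271% of all windows. A match is a description of the letters and not a binding site.

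Array values were log2 RMA values, with medians of 6.29 to 6.43 per array, and the arrays correlated at 0.976 to 0.993. Virgin replicates 2 and 4 stood apart: for 24 proliferation genes, centred over the 8 arrays, the mean lay between -0.79 and -0.41 in parous pools, against -0.22, 1.11, -0.24 and 1.62 in virgin replicates 1 to 4. Those 2 arrays were also the lowest of the 8 in some lists of other cell types, centred likewise. In virgin replicates 1 to 4 the means were -0.14, -0.91, 0.72 and -0.85 for B and plasma cell genes. For T and NK cell genes they were 0.07, -0.67, 0.93 and -0.69, and for macrophage genes 0.04, -0.32, 0.05 and -0.33. Fibroblast genes did not follow this split, at -0.33, -0.52, -0.03 and 0.03. The labels call the samples total mammary epithelial cells. All 22 luminal and all 20 myoepithelial markers other than keratins had means above every array median, and so had 9 of 9 fibroblast, 10 of 10 endothelial and 10 of 10 macrophage markers. In such a mixture, fewer cells of a type and less RNA per cell cannot be told apart.

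The keratins that fell in parous pools were Krt4, Krt6a and Krt17. All 3 were grouped as squamous or stress keratins, though Krt17 also marks the basal layer. The major luminal keratins Krt8 and Krt18 differed little, and no keratin rose. A keratin counted as lower or higher with a linear fold change over 1.5 and, in limma, an adjusted p under 0.05 at a mean log2 value over 2. These 3 of 52 compare with 0.158% of all probe sets that were lower, 0.239% that were higher and 0.397% in either direction by the same criteria. A 4th keratin, Krt19, had an adjusted p under 0.05 but a smaller fold change, where 0.173% of all probe sets were lower and 0.247% higher with an adjusted p under 0.05. At an unadjusted p under 0.05, 13 keratins were lower (6.14% of all probe sets) and 2 higher (5.26% of all probe sets). Of the 52 keratins, 38 had a difference below 0 and 14 above 0, with a median of -0.10 on the log2 scale, against 0.00155 over all probe sets. Among all 34760 probe sets, 17229 had a difference below 0 and 17531 above 0. The 4 parous arrays lay below all 4 virgin arrays for 12 keratins (4.06% of all probe sets) and above them for 2 (3.54% of all probe sets). Many members were dim on these arrays, since 36 of the 52 had a mean below the median of every array. Without virgin replicates 2 and 4, 2 keratins passed as lower, Krt4 and Krt15, beside 52 lower and 48 higher of all 34760 probe sets. Krt6a and Krt17 did not pass in that fit, though their differences were -2.29 and -1.02.

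**Figure D1:**
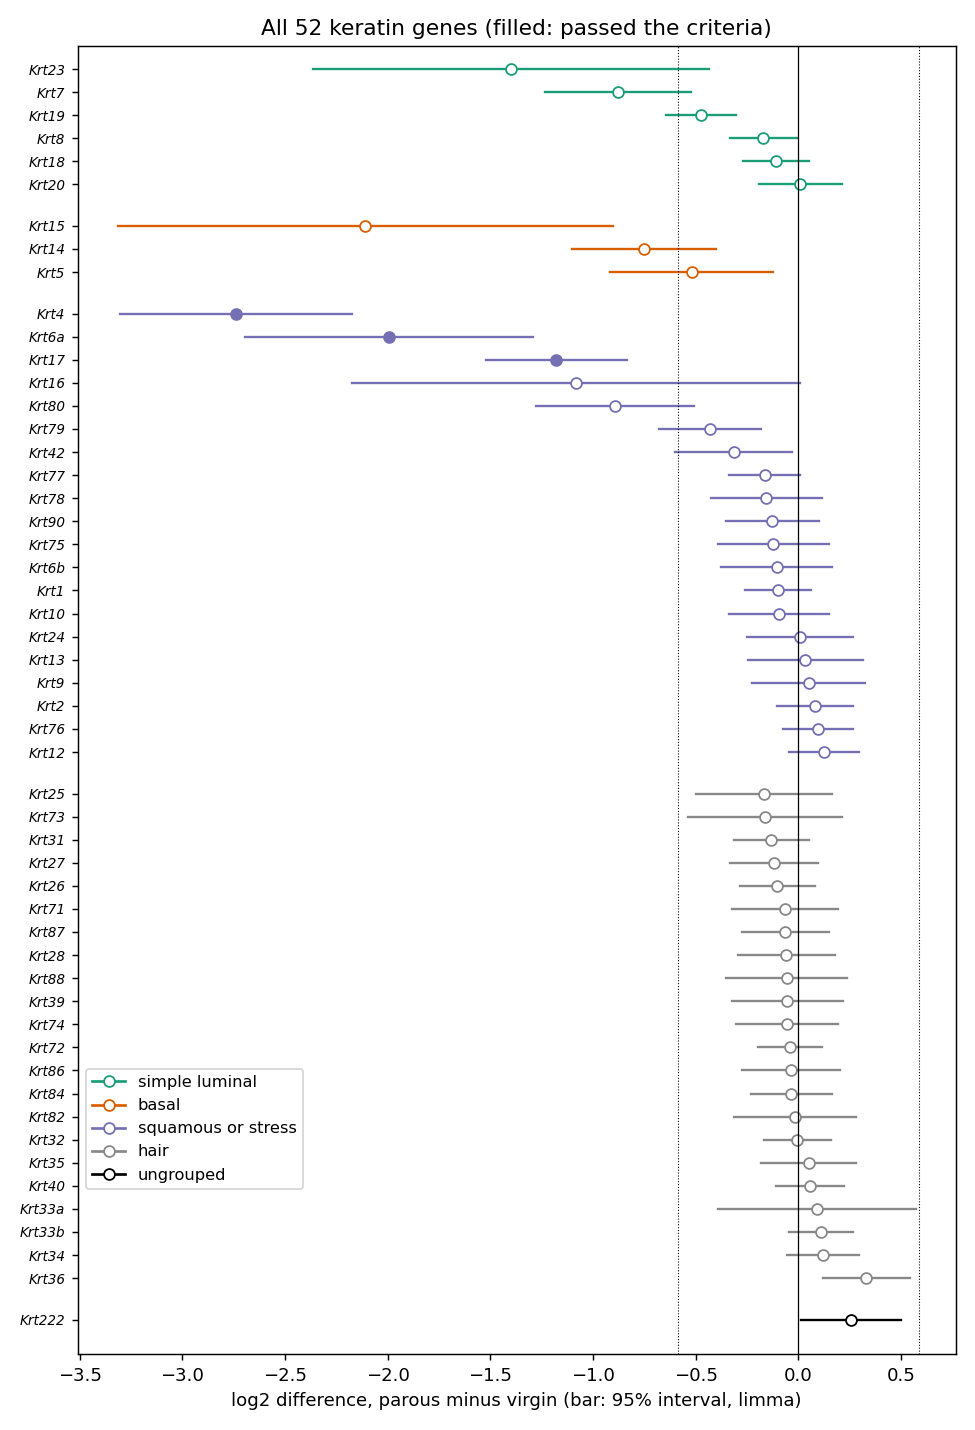
Log2 difference between parous and virgin arrays (parous minus virgin, horizontal axis) for each of the 52 keratin genes, with limma's 95% interval, coloured by keratin group. Filled points mark Krt4, Krt6a and Krt17, which passed the criteria, and dotted lines mark the fold change of 1.5 in either direction; the hair keratins lie between -0.17 and 0.33.

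Krt4, a type II keratin of moist stratified epithelia such as the oesophagus, had log2 values of 6.59, 6.92, 6.34 and 5.86 in parous pools, against 9.47, 8.92, 9.49 and 8.80 in virgin pools. All parous pools lay at least 1.89 below all virgin pools, and the lowest parous value was that of replicate 4. The log2 difference was -2.74 (standard error 0.25, 95% interval -3.31 to -2.17, adjusted p = 0.0045). Krt4 passed in each of the 8 fits that left out 1 array, with differences between -2.90 and -2.55. Krt13, the type I partner of Krt4 in these epithelia, had values of 4.90, 5.31, 5.41 and 5.39 in parous and 5.18, 5.36, 5.15 and 5.18 in virgin pools. These groups overlapped, every Krt13 value lay below the median of its array, and the difference was 0.03 (95% interval -0.24 to 0.31). At such dim values a lower level of Krt13 in parous pools may not have been detectable.

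Krt6a, which keratinocytes make in wounds and under stress, was 7.35, 6.71, 7.41 and 6.16 in parous pools and 9.07, 8.85, 9.31 and 8.36 in virgin pools. Replicate 4 was the lowest in both groups, and the groups did not overlap. Its log2 difference was -1.99 (standard error 0.31, 95% interval -2.69 to -1.29, adjusted p = 0.038). Its call was the least steady of the 3 when 1 array was left out. Of the 8 fits that left out 1 array, only that lacking virgin replicate 4 kept it, the adjusted p reached 0.150 without parous replicate 2, and the difference ranged from -2.17 to -1.74. Krt6b, its close copy and chromosomal neighbour, had 5.21, 5.16, 5.18 and 5.41 in parous pools, against 5.55, 5.31, 5.06 and 5.46 in virgin pools. Krt6b was dim and overlapping, at a difference of -0.10 (95% interval -0.38 to 0.17). Whether probes cross-hybridise between such close copies was not tested.

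Krt17, a type I keratin of myoepithelial cells that is also induced by stress and was grouped with the stress keratins for that, lay above the median of all 8 arrays. It measured 10.57, 10.66, 10.64 and 10.37 in parous pools, against 11.35, 11.71, 11.81 and 12.07 in virgin pools. The parous pools lay close together, while virgin replicate 4 was the highest and virgin replicate 1 the lowest of their group. The log2 difference was -1.18 (standard error 0.15, 95% interval -1.52 to -0.84, adjusted p = 0.017). Left out 1 array at a time, Krt17 passed without virgin replicate 1, 3 or 4 and not without virgin replicate 2 or any parous replicate, with an adjusted p of up to 0.073. Krt16, the other type I partner of Krt6a, did not pass. Its values were 4.79, 5.20, 5.05 and 5.13 in parous and 5.84, 7.23, 4.69 and 6.74 in virgin pools. Virgin replicates 2 and 4 held the highest Krt16 values and virgin replicate 3 the lowest of all 8, at a difference of -1.08 (standard error 0.48, adjusted p = 0.44) and -0.23 (adjusted p = 0.93) without virgin replicates 2 and 4.

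**Figure D2:**
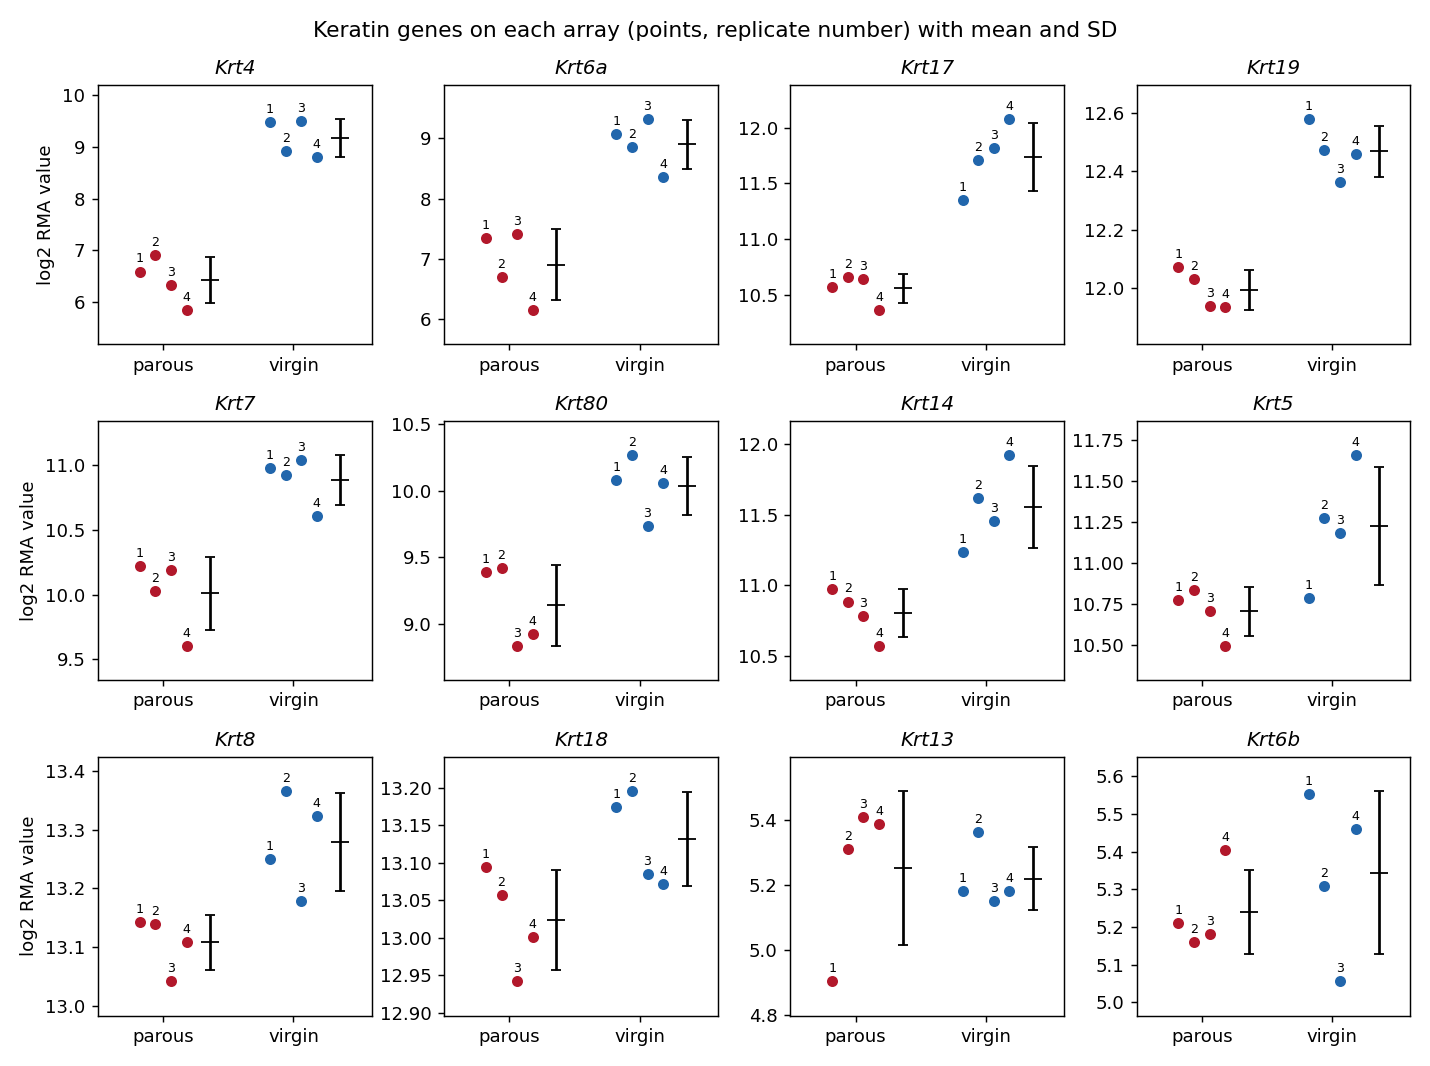
Log2 RMA value (vertical axis, with its own range in each panel) of 12 keratins on each array, parous pools in red and virgin pools in blue, numbered by replicate, with the group mean and SD in black. For Krt4, Krt6a and Krt17 all parous points lie below all virgin points, whereas Krt13, Krt6b, Krt5 and Krt18 overlap.

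Among the other 16 squamous or stress keratins, besides Krt4, Krt6a, Krt17 and Krt16, Krt80 had the largest difference. Krt80, a type II keratin found in many epithelia, was 9.39, 9.42, 8.84 and 8.92 in parous pools and 10.08, 10.27, 9.74 and 10.05 in virgin pools. The groups did not overlap, but the difference of -0.89 (standard error 0.17) had an adjusted p of 0.088. Krt79 (-0.43, adjusted p = 0.185), known from hair follicle openings and sebaceous ducts, and Krt42 (-0.32, adjusted p = 0.39) were also lower in all parous pools than in all virgin pools without passing. The remaining members lay between -0.16 and 0.13, with the epidermal keratins Krt1 and Krt10 at -0.10 each. In all, 15 of the 20 had means below every array median. Their median difference was -0.12, with 3 members lower, 0 higher and 17 that did not pass.

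The simple luminal keratins fell into unlike patterns, and none of the 6 passed. Krt8 and Krt18, the partners that mark every luminal cell, differed by -0.17 (95% interval -0.33 to -0.01, adjusted p = 0.41) and -0.11 (95% interval -0.27 to 0.05, adjusted p = 0.63). Krt8 was 13.14, 13.14, 13.04 and 13.11 in parous pools, against 13.25, 13.37, 13.18 and 13.32 in virgin pools. Krt18 was 13.09, 13.06, 12.94 and 13.00 in parous pools, against 13.17, 13.20, 13.08 and 13.07 in virgin pools. The Krt8 groups came within 0.04 of each other without overlapping, and the Krt18 groups overlapped. Both intervals lie inside a 1.5-fold difference, and Krt8 minus Krt18 within an array averaged 0.08 ± 0.03 in parous and 0.15 ± 0.08 in virgin pools (SD, n = 4 each). Such a difference of 2 probe sets has no meaning as a level, and only its shift between groups is described.

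Krt19, a type I keratin of luminal cells with no tail domain, was 12.07, 12.03, 11.94 and 11.93 in parous pools and 12.58, 12.47, 12.36 and 12.46 in virgin pools. Replicates of each group lay close together, and the difference of -0.47 (standard error 0.08, 95% interval -0.65 to -0.30) had an adjusted p of 0.044. It was 1.39-fold, short of the fold change criterion, and the adjusted p was 0.051 to 0.167 when 1 array was left out and 0.083 after median centring. Krt7, the type II keratin of ductal and glandular epithelia whose promoter holds the 4 Sp1 motifs, was 10.22, 10.02, 10.19 and 9.61 in parous pools, against 10.98, 10.92, 11.04 and 10.61 in virgin pools. Replicate 4 was again the lowest of each group, as for Krt6a, and no parous pool reached a virgin pool. The difference of -0.88 (standard error 0.16, 95% interval -1.23 to -0.52) missed the threshold with an adjusted p of 0.073.

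Krt23, a type I keratin of simple epithelia, split the virgin pools. Its values were 6.12, 6.30, 6.03 and 5.93 in parous pools and 6.67, 8.33, 6.62 and 8.37 in virgin pools. Virgin replicates 2 and 4 were the high ones, and virgin replicates 1 and 3 lay 0.32 or more above the parous pools. The difference was -1.40 (standard error 0.42, adjusted p = 0.26), and -0.55 (adjusted p = 0.23) without virgin replicates 2 and 4. Krt20, a keratin of intestine and urothelium, was dim on all arrays, at 5.09 ± 0.10 in parous and 5.08 ± 0.12 in virgin pools (SD, n = 4 each).

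The 3 keratins grouped as basal were lower on average in parous pools, but none of them passed. Krt17, which also marks the basal layer, is described with the stress keratins. Krt5 and Krt14 are partners in basal cells. Krt14 was 10.98, 10.89, 10.78 and 10.57 in parous pools, against 11.24, 11.62, 11.45 and 11.92 in virgin pools, a difference of -0.75 (standard error 0.15, adjusted p = 0.109) with no overlap. Krt5 was 10.78, 10.84, 10.71 and 10.50 in parous pools, against 10.79, 11.27, 11.18 and 11.66 in virgin pools, a difference of -0.52 (standard error 0.17, adjusted p = 0.31) in which virgin replicate 1 lay among the parous pools. In both genes virgin replicate 4 was the highest array, virgin replicate 2 the next and parous replicate 4 the lowest. Without virgin replicates 2 and 4 the difference was -0.54 for Krt14 (adjusted p = 0.32) and -0.28 for Krt5 (adjusted p = 0.78). Krt5 minus Krt14 averaged -0.10 ± 0.07 in parous and -0.33 ± 0.09 in virgin pools, and the basal Krt14 minus the luminal Krt18 averaged -2.22 ± 0.14 in parous and -1.57 ± 0.32 in virgin pools (SD, n = 4 each).

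Krt15, a type I keratin of basal cells that is also used to mark follicle stem cells, had the widest range of any keratin over the 8 arrays. It was 5.91, 6.11, 6.09 and 6.28 in parous pools, against 7.09, 8.81, 7.27 and 9.66 in virgin pools. All parous pools were below all virgin pools, and virgin replicates 2 and 4, the arrays with the highest proliferation genes, were also highest for Krt15. The difference was -2.11 (standard error 0.53, 95% interval -3.31 to -0.90, adjusted p = 0.179) with all arrays. Without virgin replicates 2 and 4 it was -1.08 (standard error 0.12, adjusted p = 0.035, 4 parous against 2 virgin pools), and Krt15 then passed at 2.11-fold lower. The arrays left out held the highest Krt15 values, which narrowed the spread, so this call adds no support. In that fit Krt4 was at -3.05 (adjusted p = 0.020), Krt6a at -2.29 (adjusted p = 0.087) and Krt17 at -1.02 (adjusted p = 0.082). All 24 proliferation genes had differences below 0, with a median of -1.25, and none passed.

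**Figure D3:**
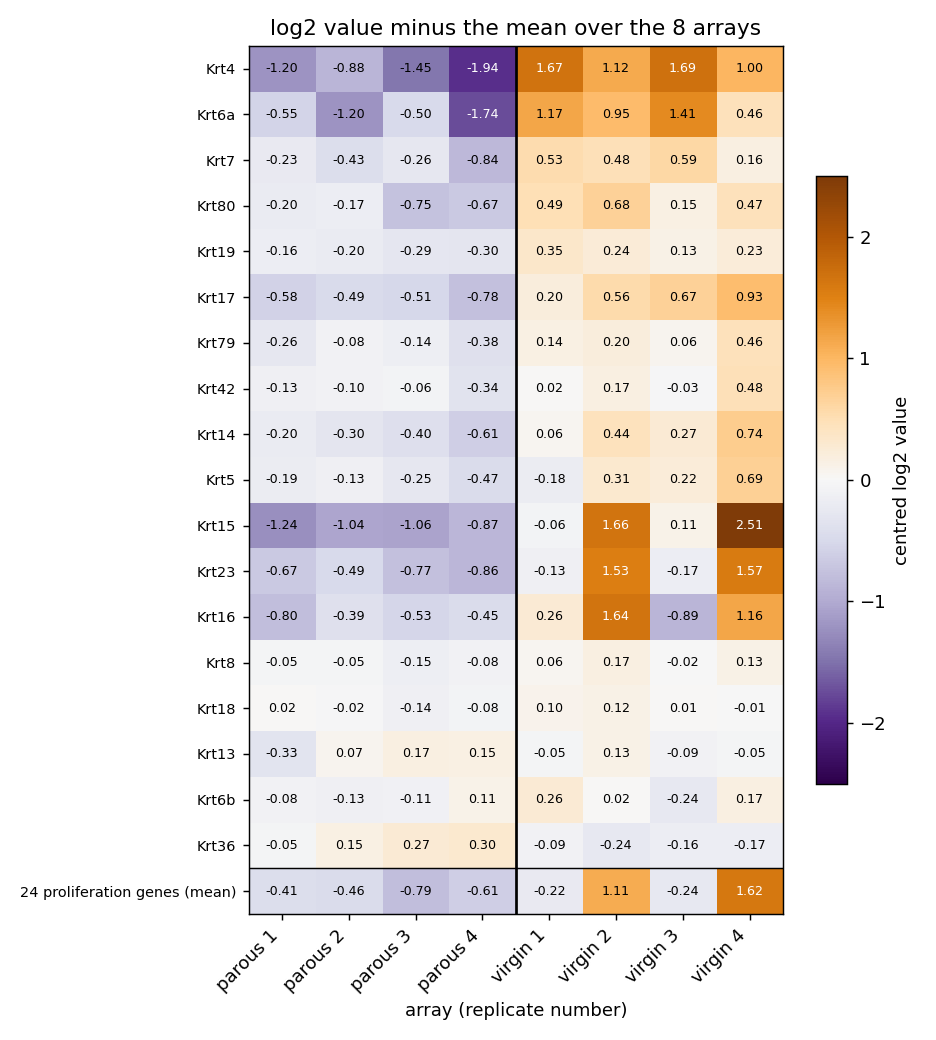
Log2 value minus its mean over the 8 arrays (colour and number in each cell) for 18 keratins and, in the bottom row, the mean of 24 proliferation genes, with parous arrays left of virgin arrays. Krt15, Krt23 and Krt16 are highest in virgin replicates 2 and 4, as the proliferation mean is at 1.11 and 1.62. Krt14 and Krt5 are also highest in virgin replicates 2 and 4, by less, whereas Krt4, Krt6a and Krt7 are highest in virgin replicates 1 and 3.

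Hair keratins showed no call in either direction. The 22 genes, which include the type I keratins of the shaft such as Krt31 and Krt34 and the inner root sheath keratins Krt25 to Krt28 and Krt71 to Krt74, had differences between -0.17 and 0.33 with a median of -0.05. Means of 19 lay below every array median. Krt36, a shaft keratin, had the largest difference, with 5.22, 5.42, 5.53 and 5.57 in parous pools and 5.18, 5.03, 5.11 and 5.10 in virgin pools. The groups did not overlap, and the difference of 0.33 (standard error 0.09) had an adjusted p of 0.225 at values below the median of every array. Krt25 lay at -0.17 (adjusted p = 0.73). Krt33b was the other keratin higher in all parous than in all virgin pools, by a gap of 0.01. Krt74 is annotated as a transcribed pseudogene. The ungrouped Krt222, a keratin-like gene, differed by 0.26 (adjusted p = 0.41).

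Measured keratin genes lay in 2 clusters, with 27 genes on chromosome 11, which holds the type I keratins, and 25 on chromosome 15, which holds the type II keratins and Krt18. Differences were below 0 for 15 of the 27 genes on chromosome 11 and for 23 of the 25 on chromosome 15, with medians of -0.05 and -0.11. Among all 34760 probe sets, 17229 were below 0. Only 1 of the 27 and 2 of the 25 passed as lower. The calls did not sit side by side. Krt4 lies between Krt76 (0.10) and Krt79 (-0.43), Krt6a between Krt6b (-0.10) and Krt5 (-0.52), and Krt17 between Krt16 (-1.08) and Krt42 (-0.32). Krt7 and its neighbour Krt80 had close differences, at -0.88 and -0.89, and so had Krt8 and Krt18.

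**Figure D4:**
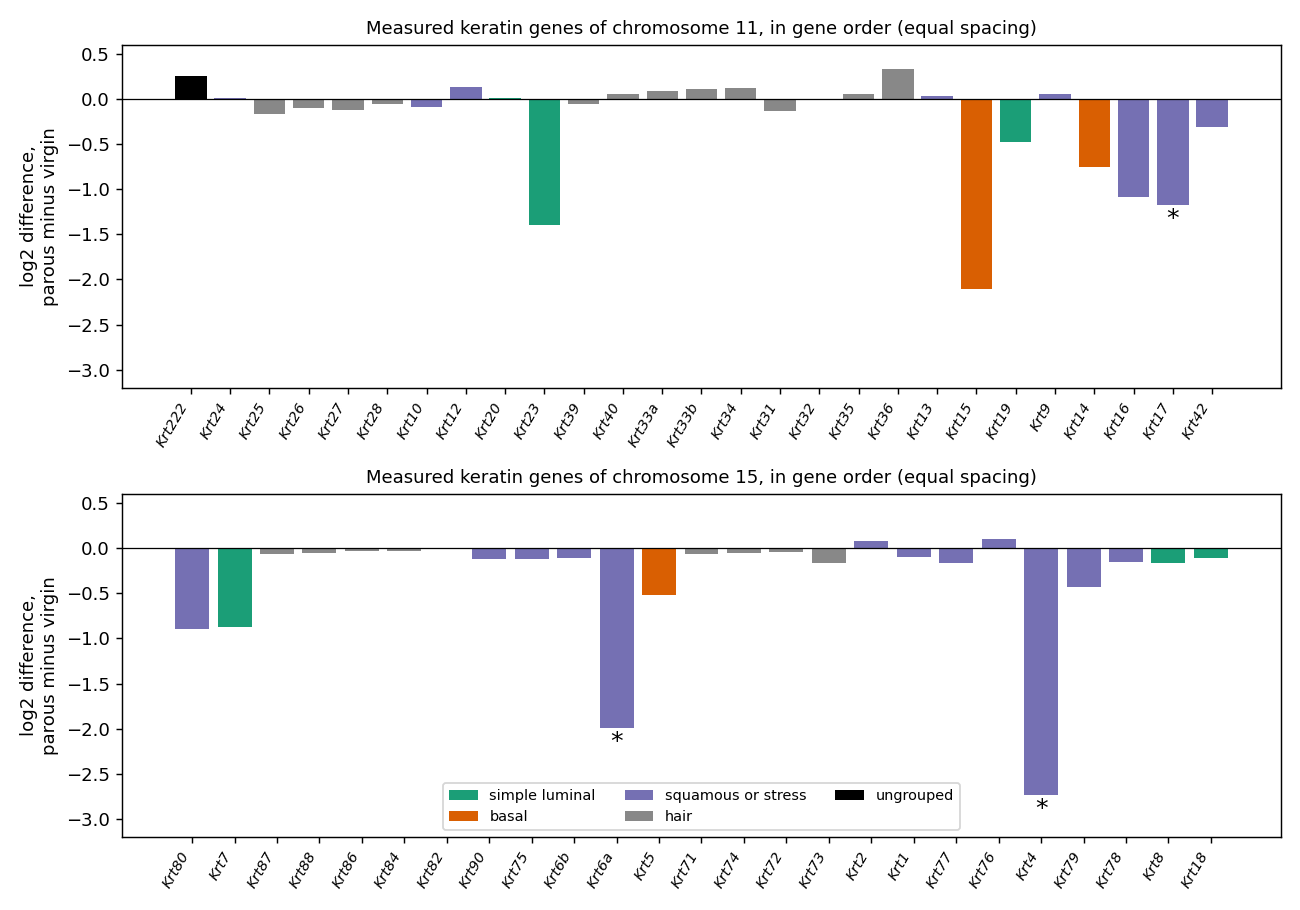
Log2 difference (parous minus virgin, vertical axis) of the measured keratin genes in their order along chromosomes 11 (top) and 15 (bottom), equally spaced and coloured by keratin group, with an asterisk on the 3 that passed. Krt4 at -2.74 and Krt6a at -1.99 stand among neighbours nearer to 0.

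Genes that work with keratins were read from lists. One list of 20 genes held filament linkers, keratin anchors and genes with keratin in their name, such as Krtcap2. Of these 20, 3 fell and none rose, with a median of -0.23, beside the 0.158% lower and 0.239% higher among all probe sets. They were Dsp, the desmosomal plakin that binds keratins (2.01-fold lower, adjusted p = 0.0027), Eppk1, epiplakin, which bundles keratin filaments (1.88-fold lower, adjusted p = 0.037), and Pkp1, a plakophilin of desmosomes (1.84-fold lower, adjusted p = 0.0022). Dsp was 9.42, 9.51, 9.28 and 9.25 in parous pools, against 10.35, 10.46, 10.34 and 10.33 in virgin pools. Dsp and Pkp1 passed whichever array was left out, and Eppk1 passed only without virgin replicate 3 or virgin replicate 4, and lost its call after median centring (adjusted p = 0.066) and without both virgin replicates 2 and 4 (adjusted p = 0.087). None of 16 other intermediate filament genes passed, with a median of -0.02. The largest differences among these were those of Des, the muscle filament desmin (0.71, adjusted p = 0.46), and Lmnb1, a nuclear lamin (-0.57, adjusted p = 0.32).

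Of 26 transcription factors known to act on keratin genes, 2 fell, none rose, and the median was -0.07, beside the same 0.158% and 0.239% of all probe sets. Tfap2b, an AP-2 factor, differed by -1.44 (adjusted p = 0.017) and Msx2, a homeobox factor of skin appendages, by -1.35 (adjusted p = 0.022). Neither passed without virgin replicates 2 and 4. Among 24 epidermal and cornification genes other than keratins, 1 fell, the envelope precursor Sprr1a (-1.96, adjusted p = 0.0052), and 17 had means below every array median. Centred means of that list were -0.23 to -0.07 in parous and 0.03 to 0.27 in virgin pools. Of 5 urothelial genes, 1 fell, the uroplakin Upk3a (-1.13, adjusted p = 0.029), with list means of -0.31 to -0.14 in parous and 0.14 to 0.37 in virgin pools. Sprr1a passed whichever array was left out, but not with unmoderated statistics (adjusted p = 0.088). Tfap2b lost its call without parous replicate 2 or 3 or virgin replicate 1 or 2 (adjusted p up to 0.062), Msx2 lost it when any parous replicate or virgin replicate 4 was left out (up to 0.091), and Upk3a when any array other than virgin replicate 4 was left out (up to 0.120). Of 15 hair follicle genes other than keratins, Msx2 alone passed, and 10 had means below every array median.

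Markers of the 2 epithelial layers other than keratins gave no call. The 22 luminal genes had a median of -0.26, with list means of -0.25 to -0.03 in parous and -0.17 to 0.24 in virgin pools, and the 20 myoepithelial genes a median of -0.14, with list means of -0.18 to -0.05 in parous and 0.07 to 0.19 in virgin pools. Lgals7, a galectin of stratified epithelium placed in the myoepithelial list, had the largest difference there (-1.65, adjusted p = 0.081), and Foxa1, a factor of hormone-sensing cells, that of the luminal list (-1.18, adjusted p = 0.118). None of 9 fibroblast genes passed, with list means of -0.11 to 0.56 in parous and -0.52 to 0.03 in virgin pools. Among 9 B and plasma cell genes 2 rose, beside 0.239% higher among all probe sets by the same criteria. Tnfrsf17, which encodes a plasma cell receptor, differed by 1.24 (adjusted p = 0.031). Jchain, whose product links IgA and IgM subunits, differed by 2.36 (adjusted p = 0.017). Means of this list were 0.02 to 0.82 in parous and -0.91 to 0.72 in virgin pools. All 10 endothelial and all 10 macrophage genes had differences above 0, with medians of 0.23 and 0.24, and none passed. List means were -0.14 to 0.30 in parous and -0.68 to 0.35 in virgin pools for the endothelial genes, and -0.16 to 0.40 in parous and -0.33 to 0.05 in virgin pools for the macrophage genes. The part of these other cell types in the keratin differences was not tested.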

How the data were processed

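The arrays carried biotin-labelled cDNA made from total RNA with the Ambion WT Expression kit. The authors' deposited values are log2 values made with rma() of affy (version not given in the sources used here): background-corrected, quantile normalized and summarized for 34760 probe sets. According to the methods, lymph nodes, adipocytes and red blood cells were removed and fibroblasts reduced before RNA extraction. Probe sets were named through the array annotation and current gene identifiers: 21640 named 1 gene, 1321 several and 11799 none, and no probe set naming several genes held a keratin. All probe sets were fitted in R 4.3.3 with limma 3.58.1 (lmFit, eBayes, parous minus virgin, no covariate, 2-sided), with Benjamini-Hochberg adjustment over all of them. The criteria for a call, taken from the methods, were an adjusted p under 0.05, a mean log2 value over 2 and a linear fold change over 1.5. Intervals are at 95%. For each of the 14 keratins with no overlap, the exact 2-sided permutation test over the 70 splits of the arrays gave 0.029, the smallest p it allows. That value follows from the lack of overlap itself and adds no support. The fit was tested on simulated data with 200 shifted probe sets. Keratins named with all array values were those that passed, had an adjusted p under 0.05, or did not overlap at over 1.5-fold. The keratins of the mammary layers, the partners Krt13 and Krt16 and the close copy Krt6b were given likewise. In each group up to 2 others with the largest difference were named, of which only Krt36 was given with all array values. In lists, members that passed were named (up to 4), or the 2 largest. Members, groups and lists were chosen with earlier results of these data known. Alternatives covered the replicate block, arrays left out, normalization, variance estimate, array weights, unmoderated statistics, filters and thresholds. The number of arrays limits the precision.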

Additional observations from a re-analysis of the deposited data

Results flagged for a closer look

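Of 104 groups of 4 arrays tested (52 keratins, parous and virgin), 3 had 1 array far from the others relative to the range of the group, where chance marks about 1 in 20 groups. Krt13 was 5.36 in virgin replicate 2, with the nearest virgin array at 5.18. Krt25 was 4.11 in parous replicate 1, with the nearest parous array at 4.63. Krt78 was 5.64 in virgin replicate 4, with the nearest virgin array at 5.42. None of these 3 keratins passed in the comparison of parous with virgin arrays.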

How the results depend on the processing

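Lower keratins numbered 3 (Krt4, Krt6a, Krt17) as reported and also after median centring, renewed quantile normalization, trend and robust estimation and a fold change over 2. They numbered 4 with array weights (adding Krt7), 4 with no fold change criterion (adding Krt19), 5 with dim probe sets left out and 5 with only probe sets of 1 gene (both adding Krt7 and Krt80), 2 without virgin replicates 2 and 4 (Krt4 and Krt15), 8 at an unadjusted p under 0.05 with the fold change over 1.5 kept, and 0 with unmoderated t statistics after Benjamini-Hochberg adjustment (8 lower and 0 higher unadjusted, with that fold change), where Krt4 had an adjusted p of 0.088. The methods name a plain t-test for comparisons in general and limma for the arrays. With unmoderated statistics Sprr1a (0.088), Tfap2b (0.116), Msx2 (0.132), Upk3a (0.147) and Eppk1 (0.152) also lost their calls, and Dsp and Pkp1 kept theirs. Leaving out 1 array gave 1 to 3 lower and 0 higher keratins, and 15 to 69 lower and 27 to 110 higher probe sets in all, against 55 and 83. Of all probe sets, 6 rose and 5 fell with unmoderated statistics (436 and 361 unadjusted), 48 rose without virgin replicates 2 and 4, 29 fell at a fold change over 2, and 535 rose and 495 fell at an unadjusted p with the fold change over 1.5. The sources used here describe 4 experiments with both groups in each but do not tie the replicate numbers to them. The correlations of same-numbered deviations were 0.12, 0.18, -0.06 and 0.31. Parous replicates 2 and 4 were closest to the virgin replicate of their own number. Parous replicate 1 was closest to virgin replicate 3 (0.19) and parous replicate 3 to virgin replicate 1 (0.19). Since the pairing is not settled, the block is given here only. With the replicate block 25 probe sets rose and 24 fell, and 3 keratins fell, Krt4, Krt6a and Krt7 (adjusted p = 0.040), while Krt17 had an adjusted p of 0.098. Of the other genes called, Tfap2b (0.051), Msx2 (0.072), Eppk1 (0.094) and Upk3a (0.111) did not pass with the block. Krt13 (0.03) turned to -0.018 and -0.011 without parous replicate 3 and parous replicate 4, within a range of -0.018 to 0.15 over the arrays left out. Krt20 (0.01) turned to -0.0071 after median centring, -0.021 after renewed quantile normalization, and -0.0022, -0.032 and -0.049 without parous replicate 1, parous replicate 3 and virgin replicate 3, within a range of -0.049 to 0.044. The median of the hair keratins was 0.04 without virgin replicates 2 and 4. The cause of these shifts was not tested. Dim signal limits what can be said of the 36 keratins below every array median.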
